A study of Homo sapiens with 4 samples.

Results

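The long arms of chromosomes 8, 10, 16 and 17 are reported to carry gains in the colorectal carcinoma line HCT116, and the GapR-GFP peaks of these 4 arms are described here. Members were the peaks whose summit lay on chromosome 8 from 46 Mb, on chromosome 10 from 42 Mb, on chromosome 16 from 37 Mb or on chromosome 17 from 27 Mb to the chromosome end, in hg38. They numbered 10195 of the 81411 peaks of WT replicate 1 (12.5%) and 6004 of the 42656 peaks of WT replicate 2 (14.1%). Of the WT replicate 1 members, 4481 overlapped a WT replicate 2 peak by at least 1 bp and are called replicated, out of 31815 such peaks in the whole genome. The short arms of the same chromosomes, to which they are compared, held 4454, 2554 and 1889 peaks in WT replicate 1, in WT replicate 2 and in the replicated set.

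CUT&RUN against the GFP tag gave 4 libraries, of which 2 carried wild-type GapR (WT) and 2 are labelled MT. The series design gives MT as a mutant GapR in cells that were not synchronised, whereas the sample labels give it as a double knockout of TOP2A and TOP2B and give palbociclib (2 µM, 28 h) for all 4 libraries. The files do not settle this, so MT is used as a name only, and the promoter that drove the fusion is not stated in the labels. Each of the 2 peak lists set 1 WT library (WT replicate 1 with 21774260 fragments after filtering, WT replicate 2 with 27443146) against the same control, MT replicate 1 (23356540). With 1 library a side and a shared control no test between libraries was possible, and nothing says that the replicates came from separate cultures. Intervals below are 95% intervals and cover counting error only. MT replicate 2 entered neither list and was not analysed here, and since DNA was measured the labelled cell type could not be checked against expressed markers.

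GapR comes from the bacterium Caulobacter crescentus and prefers DNA that is overtwisted, which is to say positively supercoiled. RNA and DNA polymerases leave overtwisted DNA ahead of them and undertwisted DNA behind, and topoisomerases relax both. In CUT&RUN a nuclease tethered to the antibody releases DNA near the bound protein, so the number of fragments at a place depends on binding and also on how many copies of that DNA each cell has. HCT116 is near-diploid, and its reported gains involve parts of long arms.

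To show what such sites hold at gene starts in the distal part of the arms, on which the results turn, 3 promoter windows with a replicated summit in both lists are shown, 1 each from the long arms of chromosomes 10, 16 and 17. Genes with such a window were ranked by their best site anywhere in the gene or within 5 kb, so the summit in the window need not be that site, and at PITX3 it stood at rank 415 of the 1204 replicated summits of the arm. They are RefSeq sequences of GRCh38.p14, read 5′ to 3′ on the gene's strand. For PITX3 and CENPN they run from 250 bases before to 50 after the gene's start. The CBX1 window, also of 300 bases, lies wholly inside the gene, whose start on the minus strand is at 48101478. The 21 capitals are the bases within 10 of the WT replicate 1 summit, at base 269 of PITX3, 69 of CENPN and 125 of CBX1. The WT replicate 2 summit was at base 268, 139 and 294 in the same order, so at CENPN and CBX1 it lay outside the capitals. PITX3 (chr10:102241463-102241762, minus strand) encodes a homeobox transcription factor of lens and midbrain dopamine neurons. CENPN (chr16:81006964-81007263, plus strand) encodes a protein of the inner kinetochore. CBX1 (chr17:48101137-48101436, minus strand) encodes the heterochromatin protein HP1 beta.
PITX3: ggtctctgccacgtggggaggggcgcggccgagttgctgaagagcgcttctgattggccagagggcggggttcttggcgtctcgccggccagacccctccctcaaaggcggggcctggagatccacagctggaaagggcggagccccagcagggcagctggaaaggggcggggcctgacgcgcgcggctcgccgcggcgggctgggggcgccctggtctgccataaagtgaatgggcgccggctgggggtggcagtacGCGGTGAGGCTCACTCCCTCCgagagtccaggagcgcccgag
CENPN: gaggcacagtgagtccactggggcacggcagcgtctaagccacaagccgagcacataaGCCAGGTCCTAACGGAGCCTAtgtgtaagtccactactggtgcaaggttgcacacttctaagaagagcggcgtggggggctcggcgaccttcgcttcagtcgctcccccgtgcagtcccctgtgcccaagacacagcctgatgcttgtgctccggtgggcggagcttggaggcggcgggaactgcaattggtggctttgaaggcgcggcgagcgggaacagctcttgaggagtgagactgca
CBX1: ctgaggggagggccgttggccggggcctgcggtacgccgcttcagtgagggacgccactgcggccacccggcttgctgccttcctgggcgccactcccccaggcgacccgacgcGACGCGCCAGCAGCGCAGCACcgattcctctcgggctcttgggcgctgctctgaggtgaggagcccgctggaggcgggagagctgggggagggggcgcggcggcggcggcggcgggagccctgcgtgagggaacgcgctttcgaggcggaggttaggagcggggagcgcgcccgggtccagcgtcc

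At the PITX3 window the pileup, the number of WT fragments over the summit, was 23 in the first WT library and 20 in the second, and the authors' fold enrichment over the local control was 6.97 and 5.42. The CENPN window had pileups of 43 and 40 and folds of 13.02 and 10.1, and the CBX1 window had pileups of 52 and 40 and folds of 11.2 and 9.82. The CENPN and CBX1 sites thus stood higher than the PITX3 start. A stronger site near the other end of PITX3 is also at a boundary of GBF1, and is described further on. The G+C content of the windows was 71.7%, 61.7% and 75.7% for PITX3, CENPN and CBX1, with 28, 19 and 38 CpG dinucleotides. Of the 2193 protein-coding genes of the long arms, 1349 had such a window, and 58 of these windows (4.30%, interval 3.34 to 5.52) held a replicated summit in both lists. The share was 4.48% on the short arms and 4.55% over all 15811 windows of the genome. Long-arm windows with such a summit had a median G+C content of 63.5%, and those without had 64%.

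The feature in which most of these long arms stood apart from their short arms was the level of the control library. Pileup and fold together give the local MT level at a peak. Its unit, here called fragments, is scaled to the depth of the WT library of the list. The level is the highest of the genome background and of control windows of up to 10000 bp, and is no raw count of MT fragments. It has a lowest possible value, the genome background of the list, at 1.87 fragments for WT replicate 1 and 2.20 for WT replicate 2, and peaks within 1% of it are called peaks at the lowest MT level. These made up 24.2% of the long-arm peaks of WT replicate 1 and 18.6% of those of WT replicate 2, against 48.9% and 39.9% on the short arms. Peaks of the other autosomes had 43.4% and 34.0%, and those of chromosome X 87.0% and 79.3%. The median MT level was 2.53 and 2.94 fragments on the long arms and 1.91 and 2.35 on the short arms in the same 2 lists, which is 1.29 times as high on average. Both lists share the MT library, so their likeness is no replication of the MT level.

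The 4 long arms did not share this to the same degree. On the long arm of chromosome 8, 9.82% of WT replicate 1 peaks and 7.71% of WT replicate 2 peaks stood at the lowest MT level, the lowest shares of the 42 and 41 arms with at least 150 peaks. The long arm of chromosome 17 had 24.2% and 18.8%, and that of chromosome 10 had 27.7% and 20.3%, which placed both among the 4 lowest arms of each list. The long arm of chromosome 16 had 42.6% and 32.6%, ranks 18 and 17, close to the other autosomes. As a whole arm, 16q therefore resembled the rest of the genome in this measure.

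Along each long arm the share was high in a proximal stretch and low in a distal one. A single split of each long arm was placed where it best separated peaks at the lowest MT level from the rest, and since it was chosen after its values were seen, the 2 sides are described with no test. On chromosome 8 the split of WT replicate 1 fell between summits at 66177487 and 66219861, an interval that overlaps CRH, the gene of corticotropin-releasing hormone. Beyond it 4.87% of peaks were at the lowest MT level, and before it 42.4%. On chromosome 10 it fell between 98266788 and 98267436, in LOXL4, a lysyl oxidase, with 6.84% beyond and 42.5% before. On chromosome 17 it fell between 45295730 and 45297573, in MAP3K14, the kinase NIK of the noncanonical NF-κB pathway, with 10.7% beyond and 53.7% before. On chromosome 16 it fell between 78123104 and 78210761, in WWOX, a long gene over a common fragile site, with 25.3% beyond and 51.9% before.

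The same split made on the WT replicate 2 list lay 0.03 kb from that of WT replicate 1 on chromosome 16, 14.5 kb on chromosome 17, 96.6 kb on chromosome 10 and 253.8 kb on chromosome 8. These are distances between listed summits, and the lists share the MT library, so they do not measure how exactly a split is placed. On chromosome 16 the lists had 4 and 3 summits from 78 to 79 Mb and 0 from 79 to 80 Mb. The WT replicate 2 shares beyond its split were 5.19%, 5.30%, 9.78% and 17.3% on chromosomes 8, 10, 17 and 16, and before it 29.6%, 34.0%, 42.5% and 44.2%. The stretch beyond, to the chromosome end, spanned 78.9 Mb on chromosome 8, 35.5 Mb on chromosome 10, 12.1 Mb on chromosome 16 and 38.0 Mb on chromosome 17. The WT replicate 1 shares before the split lay near those of the short arms, which were 42.7%, 41.4%, 53.6% and 59.8% on chromosomes 8, 10, 16 and 17. In WT replicate 2 the short arms had 37.6%, 29.9%, 45.8% and 45.6% in the same order. On chromosome 8 the share before the split was thus lower than on the short arm in that list, and on chromosome 10 it was higher. The proximal long arm of chromosome 10, 56.3 Mb of occupied bins, and most of 16q thus showed no raised MT level, and the stretches with it are named here by the split and not as gained arms. No DNA copy number was measured in these files, and its part in the raised MT level was not tested.

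**Figure D1:**
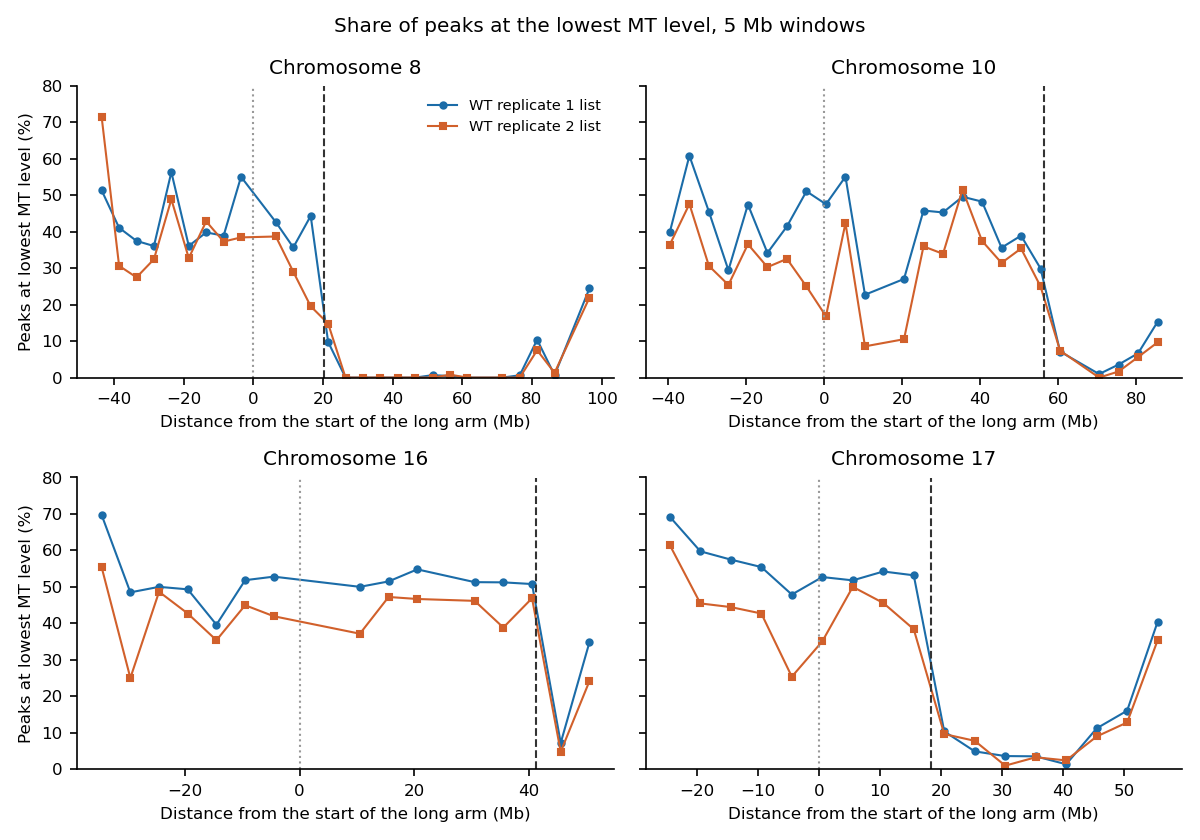
Share of peaks at the lowest MT level (y axis, %) in 5 Mb windows along chromosomes 8, 10, 16 and 17, by distance from the start of the long arm (x axis, Mb; the short arm is to the left of the dotted line). Points are windows with at least 20 peaks in both lists, and the dashed line marks the split in the WT replicate 1 list, beyond which the windows of chromosome 8 fall to 0% in both lists over much of the arm.

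The plot of the share along the arms shows windows of 5 Mb. Under 15% of peaks were at the lowest MT level in both lists in 24 of the 51 long-arm windows, and 6.09% of all windows of the genome met that mark. They were 13 of 17 windows on chromosome 8, 4 of 15 on chromosome 10, 1 of 8 on chromosome 16 and 6 of 11 on chromosome 17. None of the 29 windows of the short arms and 7 of the 427 windows of the other chromosomes met it. Of those 7, 6 were among the 43 windows within 5 Mb of an arm boundary, next to the centromere, and 1 was among the 384 farther away. From 70 to 95 Mb on chromosome 8, 0% of peaks were at the lowest level in both lists. Toward the end of 3 arms the share was higher again, at 24.5% and 21.9% in the last window of chromosome 8 with enough peaks, 34.8% and 24.1% on chromosome 16 and 40.4% and 35.3% on chromosome 17, the WT replicate 1 value first. The window of chromosome 17 is shortened by the chromosome end, and the full one before it had 16.02% and 12.8%. The last window of chromosome 10 with enough peaks had 15.3% and 9.68%.

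Beyond the splits the median WT pileup of the listed peaks was higher, and the median fold over the 4 arms was slightly lower. Peaks are listed only where the pileup passes the authors' cutoff over the local MT level. A higher MT level therefore requires a higher pileup, so the pileups are no separate observation. In WT replicate 1 the median MT level was 2.81 fragments beyond, 1.94 before and 1.91 on the short arms, and the median WT pileup was 15 beyond, 13 before and 13 on the short arms. WT replicate 2 had median MT levels of 3.30, 2.35 and 2.35 fragments and median pileups of 18, 16 and 16 in the same order. The median fold was 4.06 beyond, 4.18 before and 4.20 on the short arms in the WT replicate 1 list, and 4.17, 4.48 and 4.38 in the WT replicate 2 list. Chromosome 16 went the other way, with median folds of 4.30 beyond and 4.19 before in WT replicate 1 and of 4.50 and 4.48 in the second list. Medians of MT level that sit near the lowest value cannot go lower, so the ratio between stretches is bounded by it. By chromosome, the median MT level beyond the split in WT replicate 1 was 3.01 fragments on 8, 2.92 on 10, 2.80 on 17 and 2.33 on 16, while before it the medians were 2.05, 1.99, 1.87 and 1.87.

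**Figure D2:**
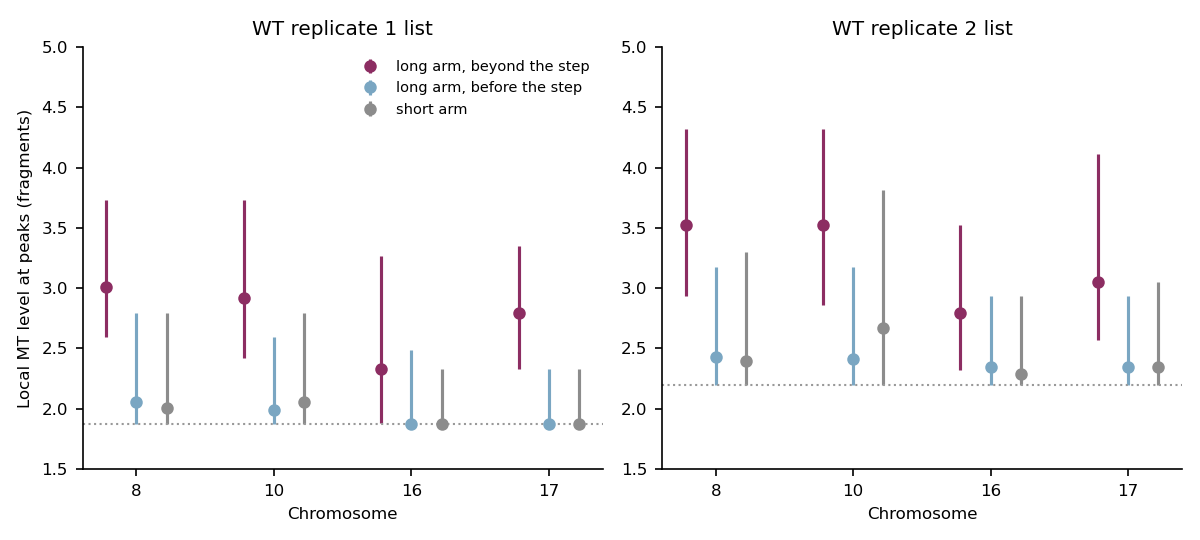
Local MT level at peaks (y axis, fragments; points are medians and bars span the middle 50% of peaks) on chromosomes 8, 10, 16 and 17, beyond the split, before it and on the short arm, for each peak list. The dotted line is the lowest level the list allows, and the medians beyond the split lie above the other medians on each chromosome in both lists.

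The plot of MT levels by stretch shows the long arm before the split beside the short arm, with medians from 1.87 to 2.05 fragments before the split and from 1.87 to 2.05 on the short arms in WT replicate 1. The difference between the stretches was present in every class of position. Where the summit lay within 1 kb of a protein-coding gene's start or end, 16.8% of WT replicate 1 peaks beyond the splits stood at the lowest MT level, against 54.6% before them and 59.9% on the short arms. Inside protein-coding genes the shares were 7.57%, 48.0% and 49.03%, and more than 5 kb from any gene 4.75%, 38.8% and 38.2%, in the same order. On the 18 other autosomes the share at gene boundaries ran between 47.2% and 64.3%. Median pileups at gene boundaries were 26 fragments beyond, 19 before and 19 on the short arms, and median folds were 6.97, 6.10 and 6.27.

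Summits were denser on the long arms than on the short arms when the 4 chromosomes were pooled. Over the Mb bins that held a gene or a peak, the long arms had 15.1 replicated summits per Mb and the short arms 12.4, a ratio of 1.22 (interval 1.15 to 1.29). Per protein-coding gene they had 2.04 and the short arms 1.48, a ratio of 1.38 (1.31 to 1.46). The single lists gave 34.4 summits per Mb on the long arms and 29.3 on the short arms in the WT replicate 1 list, and 20.3 and 16.8 in the WT replicate 2 list. Counted over peaks at the lowest MT level alone the ratios were 0.553 per Mb and 0.628 per gene, a setting that keeps a smaller share of the long-arm than of the short-arm peaks by the difference given above. With chromosome 17 left out the ratio per Mb was 1.04.

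By chromosome the pooled ratios hid opposite directions. Per Mb, the ratio of long to short arm was 1.70 (1.53 to 1.89) on chromosome 17, 1.24 (1.11 to 1.39) on 10, 1.02 (0.918 to 1.15) on 8 and 0.928 (0.826 to 1.04) on 16, and the intervals of 8 and 16 include 1. Per protein-coding gene it was 1.54 on chromosome 8, 1.51 on 16 and 1.49 on 17, but 0.771 (0.691 to 0.862) on 10. The long arm of chromosome 10 had 6.22 protein-coding genes per occupied Mb and its short arm 3.86, whereas on chromosome 16 the long arm had 7.96 and the short arm 12.97. On the 14 other chromosomes with both arms, the ratio ran between 0.487 and 1.86 per Mb with a median of 1.06, and between 0.529 and 1.36 per gene with a median of 1.00. Each per-Mb ratio of the 4 chromosomes lay inside that range, and the per-gene ratios of 8, 16 and 17 lay above its highest value, that of chromosome 3. In the WT replicate 1 list alone this did not hold, since the other chromosomes there reached 1.63 per gene, on chromosome 6, and 8, 16 and 17 had 1.47, 1.55 and 1.44.

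**Figure D3:**
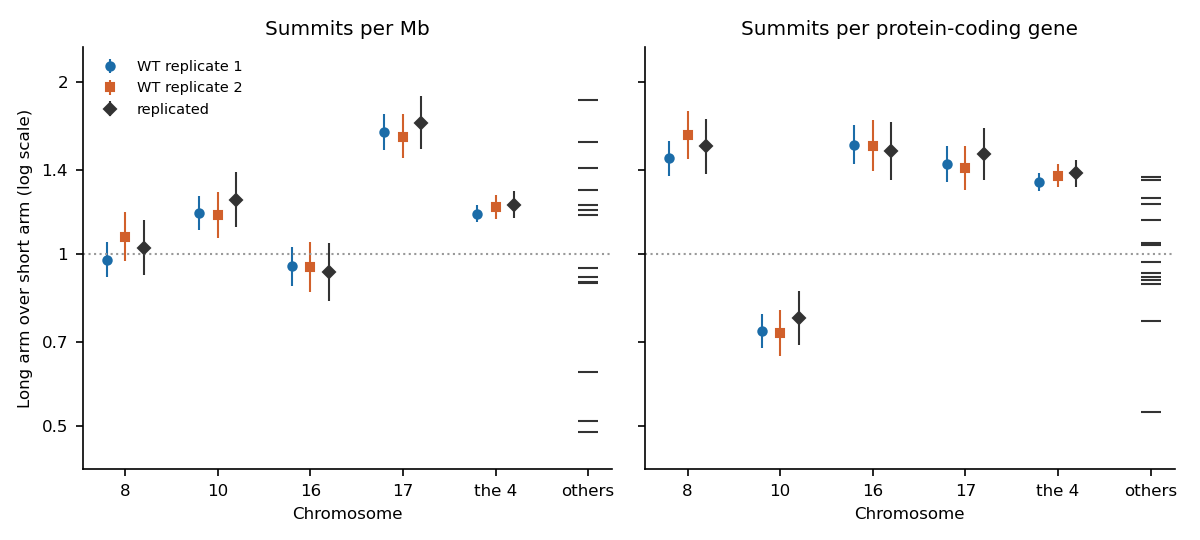
Ratio of long arm to short arm in summits per Mb and in summits per protein-coding gene (y axes, log scale) on chromosomes 8, 10, 16 and 17, over the 4 together and on the 14 other chromosomes (dashes, replicated summits). Points are WT replicate 1, WT replicate 2 and replicated summits with 95% counting intervals, and per gene chromosome 10 lies below 1 in all 3 sets while 8, 16 and 17 lie above it.

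The plot of arm ratios shows the 3 sets of summits side by side, and for each chromosome they fell on the same side of 1 per gene. Within the long arms, the stretches beyond the splits held 17.3 replicated summits per Mb and those before 12.4, the same as the short arms. The ratio beyond over before was 1.39 (1.31 to 1.48) per Mb and 1.65 (1.55 to 1.76) per gene. It exceeded 1 on each chromosome for replicated summits per Mb, with 1.98 on 8, 1.35 on 10, 1.86 on 16 and 1.17 on 17, and per gene with 1.34, 1.19, 1.80 and 2.16. On 17 the stretch before the split had 20.99 protein-coding genes per occupied Mb and that beyond 11.4, which enters the ratio per gene. In the whole WT replicate 1 list the ratio of summits per gene did not exceed 1 on chromosome 10, at 0.986 (0.916 to 1.06). The MT level moved with the density of summits, and its part in that density was not tested.

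WT replicate 1 peaks of the long arms overlapped a WT replicate 2 peak in 44.0% of cases, those of the short arms in 42.4% and those of all other chromosomes in 38.1%, where 39.1% of all WT replicate 1 peaks did. From the side of WT replicate 2 the shares were 84.5%, 84.3% and 84.7%. Beyond the splits 46.7% of WT replicate 1 peaks were replicated, against 39.7% before, whereas from the side of WT replicate 2 the shares were 82.8% beyond and 87.8% before. Of the replicated long-arm summits, 1123 (25.1%, interval 23.8 to 26.4) lay within 1 kb of a protein-coding gene boundary, against 28.0% on the short arms and 27.5% of all replicated summits. Beyond the splits the share was 22.01%, against 30.6% before. A further 44.2% lay inside protein-coding genes (40.5% on the short arms), 7.79% inside genes of long noncoding RNAs and 13.1% more than 5 kb from any gene.

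The few strongest sites of the long arms stood mostly beyond the splits, and the excess there was smaller in wider ranks. Sites were ranked by the worse of their 2 fold ranks, and the 3 best with a protein-coding gene of at least 5 kb were taken on each arm. All 12 lay beyond the split of their arm. Among the 10 best replicated summits of each arm, 10 were beyond the split on chromosome 8, 8 on 10, 8 on 16 and 9 on 17. Among the 50 best of each arm the share beyond was 92%, 66%, 50% and 80%, in the same order. The stretches beyond held 88.6%, 46.1%, 41.0% and 71.3% of the replicated summits of those arms. Among the 100 best replicated summits of the genome, 32 lay in these stretches, 3 in the long arms before the splits and 7 on the short arms. Among the 1000 best, 15.4% lay beyond the splits, 4.8% before them and 6.3% on the short arms. The stretches beyond held 9.06% of all replicated summits, the stretches before 5.03% and the short arms 5.94%. These places rest on folds over the single MT library.

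On chromosome 8 the best named site had a pileup of 71 in WT replicate 1 and 52 in the other list, over an MT level of 1.87 and 2.20, and a fold of 25.1 and 16.6. It lay within 1 kb of a boundary of KIFC2, a kinesin of the C-terminal motor class, and of the readthrough gene TMEM276-ZFTRAF1, and within 5 kb of ZFTRAF1. Its fold was the highest of the long-arm peaks in WT replicate 1. A site within 5 kb of RIMS2, which encodes a scaffold of the presynaptic active zone, had pileups of 59 and 47 and folds of 18.6 and 13.3, and its summit lay in an lncRNA gene. The site at MROH1, a protein of HEAT-like repeats, had pileups of 49 and 47 and folds of 17.2 and 15.02. The gene with the most replicated summits on the arm was NSMCE2, the SUMO ligase of the SMC5/6 complex, which spans 275261 bp. It had 70 and 46 in the 2 lists and 33 replicated. Such counts per gene, here and on the other arms, include summits within 5 kb of the gene. CYRIB, a regulator of RAC1 and actin, followed with 49, 29 and 16. NSMCE2 shared the densest Mb of the arm, which held 61 replicated summits, with SQLE, WASHC5 and TRIB1, where the median Mb of the arm held 7.

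The longest gene of the arm without a replicated summit was CSMD3, a large transmembrane protein with CUB and sushi domains, with 0 listed summits in either list over 1214012 bp. It lay beyond the split, in a window of 5 Mb without a listed WT replicate 1 peak. Such windows numbered 24 of 596 in the genome and 3 on these long arms.

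On chromosome 10 the site inside GRK5, a kinase of G protein-coupled receptors, had pileups of 57 and 57, MT levels of 1.91 and 2.41 and folds of 19.9 and 16.99. The site within 1 kb of a boundary of both PITX3 and GBF1, an exchange factor of the Golgi, had pileups of 63 and 54 and folds of 19.2 and 16.1. The genes overlap, and the site lies at the end of PITX3 away from the promoter window printed above. That window lies inside the span of GBF1. KAZALD1, a secreted protein with insulin-like growth factor binding and Kazal domains, had pileups of 56 and 43 and folds of 18.99 and 13.2. The gene with the most replicated summits was TCF7L2, the main TCF factor of Wnt signalling in the intestine, with 64 and 41 in the 2 lists and 24 replicated. DNMBP, an exchange factor for CDC42 at epithelial junctions, had 46, 42 and 23. PCDH15, a protocadherin of hair cells that spans 1825172 bp, lay before the split and had 1, 0 and 0.

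On chromosome 16 the site at COTL1, a coactosin-like actin-binding protein, had pileups of 57 and 45 and folds of 19.9 and 14.2. ZFPM1, the GATA cofactor FOG1, had pileups of 47 and 44 and folds of 16.7 and 14.1, over the lowest MT level in both lists. RPL13, a protein of the large ribosomal subunit, had pileups of 51 and 41 and folds of 15.6 and 12.5. ANKRD11, a chromatin regulator, held 69 and 44 summits in the 2 lists and 24 replicated ones, and GSE1 held 43, 30 and 24. HYDIN, a protein of motile cilia that has a near-identical copy elsewhere in the genome, lay before the split and had 5, 0 and 0.

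On chromosome 17 the site inside ARHGAP27, a GTPase-activating protein, and within 5 kb of PLEKHM1, a lysosomal adaptor, had pileups of 51 and 45 and folds of 18.1 and 14.4. It lay close beyond the split and stood over the lowest MT level in both lists. BPTF, the largest subunit of the NURF remodeller, had pileups of 55 and 45 and folds of 18.9 and 13.9. The site in FTSJ3, a ribosomal RNA methyltransferase, and within 5 kb of SMARCD2, a SWI/SNF subunit, had pileups of 53 and 50 and folds of 16.2 and 12.95. KANSL1, a subunit of the NSL acetyltransferase complex in a region of segmental duplications, held 73, 39 and 28 summits, and the ubiquitin ligase gene SMURF2 held 55, 41 and 25. CA10, a carbonic anhydrase-related protein of neurons, lay beyond the split and had 0, 1 and 0.

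**Figure D4:**
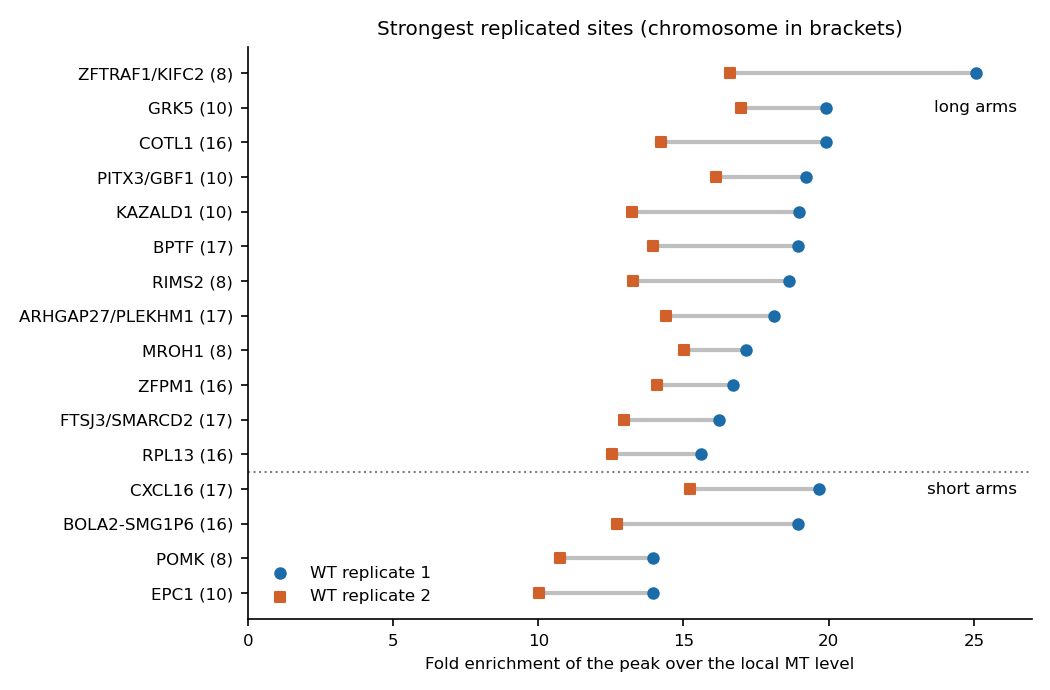
Fold enrichment over the local MT level (x axis) in WT replicate 1 and WT replicate 2 at the 12 strongest named sites of the long arms (above the dotted line) and the 4 of the short arms, with the chromosome in brackets. The long-arm sites run from 15.6 to 25.1 in WT replicate 1 and from 12.5 to 16.99 in WT replicate 2, and CXCL16 and BOLA2-SMG1P6 on the short arms lie within that range.

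The plot of the strongest sites sets them beside the best named site of each short arm. All 12 long-arm sites had higher folds in both lists than the POMK site of 8p (13.9 and 10.7) and the EPC1 site of 10p (13.9 and 10.0). POMK encodes a kinase of dystroglycan glycosylation and EPC1 a subunit of the NuA4 acetyltransferase. CXCL16, a transmembrane chemokine on 17p, had 19.7 and 15.2 at a site outside the gene, within 5 kb of it, and the site at BOLA2-SMG1P6 on 16p had 18.9 and 12.7 but lies among near-identical copies and is uncertain. The CXCL16 site thus exceeded the 3 named sites of 17q in both lists. In every strongest long-arm site other than GRK5 the pileup was higher in WT replicate 1 than in WT replicate 2, although WT replicate 2 had more fragments.

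Of the 2193 protein-coding genes of the long arms, 1631 (74.4%, interval 72.5 to 76.2) had a replicated summit inside or within 5 kb, where 66.8% of all protein-coding genes had one. The short arms had 874 of 1278 (68.4%). Beyond the splits the share was 80.2% (918 of 1144), against 68.0% before (713 of 1049), which was near the background. By chromosome it was 79.7% beyond and 64.5% before on 8, 87.5% and 71.9% on 16 and 84.8% and 63.0% on 17. On chromosome 10 it was 69.5% beyond and 71.2% before, so that the difference was not seen there. Median gene length was 25829 bp beyond and 20547 bp before over the 4 arms, but 30829 bp beyond and 51682.5 bp before on chromosome 8. The stretch of 17 before the split also holds the type I keratins (8 of 24 with a replicated summit) and the keratin-associated proteins (3 of 30). The part of gene length and of these clusters in the shares was not tested.

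Lists of genes with a common role differed widely in how many members had a replicated summit. Of the 25 genes of DNA replication and repair on these arms 24 had one, led by CDT1, which loads the replicative helicase at origins, with pileups of 54 and 37 and folds of 19.2 and 11.9. ORC6, a subunit of the origin recognition complex, had folds of 10.3 and 9.08, and MMS19, which delivers iron-sulphur clusters to repair enzymes, had 10.5 and 8.66. MGMT, the methylguanine repair enzyme, was the exception. Of the 9 genes of chromosome topology and folding 8 had one, namely all but the telomere protein gene TERF2. CTCF, the insulator protein, had folds of 13.6 and 8.06, TERF2IP had 8.01 and 6.26 and TOP1MT, the mitochondrial topoisomerase I, had 8.71 and 7.03. TOP2A, one of the genes that the labels name as knocked out in MT, lay before the split of chromosome 17 and had pileups of 29 and 39 over MT levels of 4.11 and 4.70, for folds of 5.87 and 7.01 at its boundary.

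Among the 11 cytosolic ribosomal protein genes 10 had a replicated summit, all but RPS20. Beside RPL13, RPL38 had folds of 16.03 and 12.2 and RPL8 had 17.4 and 11.1, all beyond the splits. The sites of CDT1, RPL38 and RPL8, like those of MT2A and of KRT15 with KRT19, lay outside the gene, at most 5 kb away, and may belong to a neighbour. The median best fold of the list was 11.8 and 8.73, where the median of all 1631 long-arm genes with a site was 8.21 and 6.19. Of 41 oncogenes and tumour suppressors 37 had one, all but MAF, RET, STAT5A and STAT5B. NFKB2, the precursor of the p52 NF-κB subunit, had folds of 14.2 and 10.1, PTK2, the focal adhesion kinase, had 12.6 and 9.94 and TCF7L2 had 13.98 and 9.27. Their median best fold, 8.84 and 6.77, was close to that of all genes. At WWOX, which holds the split of chromosome 16, all 3 summits of each list were replicated.

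HOXB genes, the homeobox cluster of anterior-posterior patterning on chromosome 17, had a replicated summit in 8 of 10, all but HOXB1 and HOXB5. HOXB3 had folds of 14.7 and 11.2, and HOXB7 and HOXB8 shared a site of 12.8 and 9.85. Cadherins of 16q, a family of cell adhesion proteins, had a replicated summit in 5 of 8. The plot labels this list classical cadherins, although CDH13 and CDH16 are outside that class. CDH3 had folds of 10.5 and 7.20, CDH15 of 10.1 and 6.57 and CDH1, the epithelial cadherin, of 8.84 and 8.20. CDH8, CDH11 and CDH16 had none. Metallothioneins, small metal-binding proteins in a tight cluster of 16q, had one in 6 of 11, with MT2A at 12.9 and 13.1, MT1X at 9.75 and 6.88 and MT1E at 9.06 and 7.51. Sites within 5 kb can be shared by neighbours in such clusters, as for MT1B and MT1F.

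At the other end were genes of differentiated tissues. Type I keratins of chromosome 17 had a replicated summit in 8 of 24, with a site shared by KRT15 and KRT19 at folds of 9.75 and 7.51 and KRT32 at 6.62 and 5.32. Keratin-associated proteins, which build the hair shaft, had one in 3 of 30. CYP2C and CYP26 genes of chromosome 10 with CYP17A1 and CYP2E1, enzymes of drug, steroid and retinoic acid metabolism, had one in 2 of 8, a single site shared by CYP26A1 and CYP26C1. The keratin clusters lie before the split, in the gene-dense proximal part of the arm. Keratin-associated genes are also short, from 483 to 1610 bp, where the median protein-coding gene of the long arms spans 22944 bp. The part of gene length in the shares of the lists was not tested. No expression was measured, so the order of the lists was not compared with transcription.

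**Figure D5:**
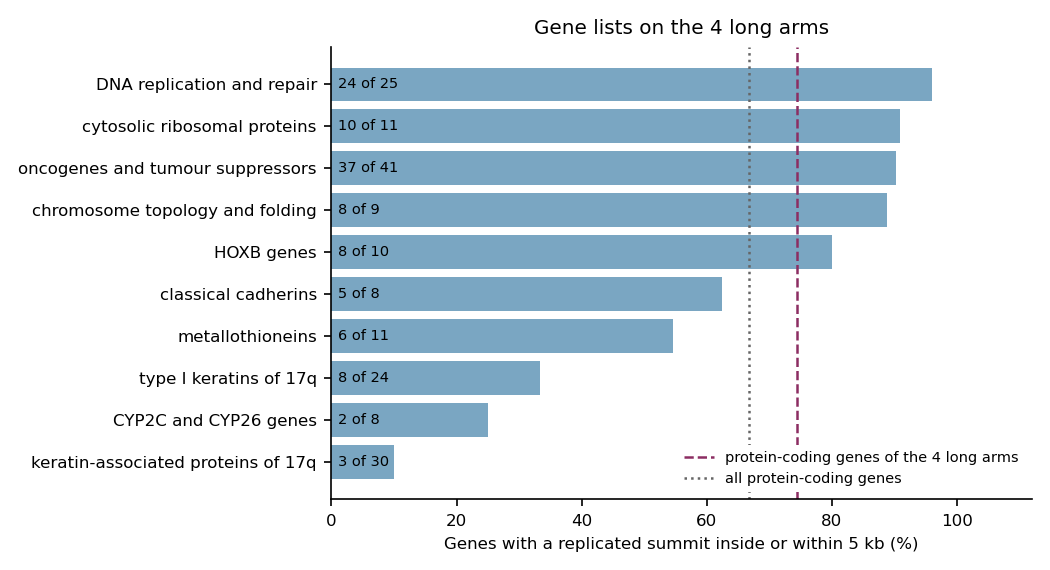
Share of the genes of each list on the 4 long arms with a replicated summit inside the gene or within 5 kb (x axis, %), with the numbers written on the bars. The dashed line is the share over all protein-coding genes of the long arms (74.4%) and the dotted line that over the genome (66.8%), and keratin-associated proteins stand lowest with 3 of 30.

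The plot of gene lists has 5 of the 10 lists above the share of the long arms and 5 below that of the genome. Densest among the single Mb of each arm, beside the 61 replicated summits around NSMCE2, were 45 in the Mb of SMC3 and ADD3 on chromosome 10 and as many in the Mb in which TCF7L2 begins, 54 in that of ANKRD11 and RPL13 on 16 and 73 in that of GRB2, RECQL5 and GALK1 on 17. The median Mb held 10.5, 7 and 26 on these arms. Mb without a replicated summit numbered 19 of 100 on chromosome 8, 16 of 92 on 10, 11 of 47 on 16 and 2 of 57 on 17.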

How the data were processed

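HCT116 cells were profiled by CUT&RUN for GFP with paired reads of 75 bp, per the labels' protocols. The build hg38, MACS2 2.1.2, Bowtie2 2.3.4 and ChIPseeker 1.28.3 are named in the submitters' processing notes. The authors ran MACS2 for each WT library against MT replicate 1, at a q-value cutoff of 0.05 and a smallest length of 200 bp, per the file headers.

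Pileup, a signal deposited by the authors, is WT fragment coverage at a summit, in whole numbers. Fold enrichment, a ratio deposited by the authors, divides pileup by local MT level after adding 1 to each. The −log10 p and q values that the authors deposited were not used. The local MT level was computed back from pileup and fold, which rests on the pileups being unscaled. It is in units scaled to the WT depth of its list. Copy number was not corrected for, and a peak at the lowest MT level has its fold taken over the genome background.

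Replicated peaks were WT replicate 1 peaks sharing at least 1 bp with a peak of WT replicate 2, and keep their WT replicate 1 summit. Densities used occupied 1 Mb bins, those with any gene or peak. Genes and promoter windows, the first listed for a gene, came from RefSeq tables for GRCh38.p14. Shares have Wilson intervals and density ratios exact conditional binomial intervals (scipy 1.17.1, pandas 2.3.3, Python 3.11.15). The split was the single point of highest binomial likelihood, and its code was tested on simulated data. Named genes were, on each long arm, the 3 strongest sites, the 2 genes with most replicated summits and the longest without one; on each short arm the strongest; and the 3 best of each list with the members lacking a summit. Others were named after their values were seen: genes at the splits and in the densest Mb, TOP2A, WWOX, and MT1B and MT1F. The members, lists and settings were chosen with earlier results of these data known. Alternatives were a fold of at least 5, another overlap, each chromosome or list left out, arm ends left out, peaks at the lowest MT level only, another gene set or window, and whole arm length.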

Additional observations from a re-analysis of the deposited data

How the results depend on the processing

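Of 79 alternative values for 8 results, 39 stayed close to the reported one, 37 moved by more than the spread between lists or the counting interval, and 3 changed direction. Each list alone gave 1.18 to 1.21 for summits per Mb (reported 1.22, long over short arm), 1.33 to 1.37 per gene (1.38), 14.5% to 21.99% for summits at gene boundaries (25.1%) and 76.1% to 83.8% for genes with a summit (74.4%). The share of WT replicate 1 peaks also in WT replicate 2 (44.0%) needs both lists.

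With peaks at the lowest MT level only, which keeps a smaller share of long-arm than of short-arm peaks, the density ratios turned to 0.553 per Mb and 0.628 per gene, and the median MT level ratio (1.29) became 1 by construction. The median fold ratio (0.987) became 0.962, the replicated share 28.1%, the boundary share 37.6% and the gene share 24.4%. With a fold of at least 5 the median fold ratio turned to 1.03, the densities were 1.19 per Mb and 1.34 per gene, and the 3 shares were 53.4%, 40.4% and 55.2%. With an overlap of 50% of both peaks the densities were 1.31 and 1.49, the replicated share 26.2% and the gene share 60.6%.

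Without chromosome 8 the densities were 1.31 and 1.35, the fold ratio 0.996 and the difference in lowest-level share −20.5 percentage points (reported −23.0). Without chromosome 10 the per-gene density was 1.56, the replicated share 45.5%, the difference −27.0 and the fold ratio 0.966. Without chromosome 16 the densities were 1.31 and 1.24 and the fold ratio 0.976. Without chromosome 17 the per-Mb density was 1.04, the replicated share 41.6%, the difference −20.6 and the fold ratio 0.973. Without the first and last 5 Mb of each arm the densities were 1.16 and 1.32 and the fold ratio 0.973. With genes of at least 5 kb the per-gene density was 1.29. The cause of these shifts was not tested. No paired analysis was possible because both WT libraries were set against the same MT library and no test was fitted. Depth limits the MT level, which cannot be seen below 1.87 and 2.20 fragments, and no input DNA, copy number or second control was used here.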
